A study of Mus musculus with 11 samples.

Results

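The genes that load and display peptides on MHC class II were followed in alveolar macrophages, phagocytes that live in the airspaces of the lung, during and after a course of CpG injections in mice. The set was chosen by gene symbol and holds 8 genes, H2-Aa, H2-Ab1, H2-Eb1, H2-DMa, H2-DMb1, H2-Oa, Cd74 and Ciita. Of the 8, 7 were found among the 19505 named genes of the table, and all 7 were among the 12143 genes tested. Cd74 was not analysed here. Where a symbol had several transcript clusters, the one with the highest mean was taken.

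Every mouse was a female C57BL/6J bought at 6 weeks of age and received 5 injections over 10 days. Resolution mice (n = 4) were injected with CpG 1826, an oligonucleotide that activates the DNA sensor TLR9, and their lungs were washed out on day 30. Acute mice (n = 3) had the same CpG course with lavage on day 10, as a model of MAS (macrophage activation syndrome), a state of excess cytokine release. Control mice (n = 4) were given PBS in place of CpG, with lavage also on day 10. No PBS group of day 30 was analysed here, so the day of lavage and the treatment cannot be told apart in resolution versus control. Cells of the lavage fluid were purified by adherence, and the RNA of each of the 11 samples was read on 1 Affymetrix array. Arrays were alike in signal, with a median intensity between 51.4 and 57.0 and a background, the 90th percentile of 23 probe sets that match no mouse sequence, between 6.12 and 6.24 on the log2 scale. All levels below are log2(intensity + 1), differences are on the same log2 scale, and levels of different genes were not set against each other because each probe set has its own brightness. In bulk RNA, a change in the RNA of each cell and a change in the share of cells of another type cannot be told apart.

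MHC class II molecules are pairs of an alpha and a beta chain that carry peptides of engulfed proteins to CD4 T cells. H2-Aa and H2-Ab1 encode the chains of I-A, and H2-Eb1 the beta chain of I-E, whose alpha chain mice of the b haplotype such as C57BL/6 do not make. The invariant chain, encoded by Cd74, fills the groove during assembly. H2-DM, made of the chains of H2-DMa and H2-DMb1, exchanges its remnant for peptide, and H2-DO, which includes the chain of H2-Oa, inhibits H2-DM. Ciita encodes the coactivator that switches on these genes together and is itself induced by interferon-gamma. It does not bind DNA, but joins factors held on paired promoter elements known as the X and Y boxes.

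The members whose promoters could be read are shown around these elements, because Ciita acts through them. RefSeq windows (GRCm38.p6, 250 bases before to 50 after an annotated start) were found for 5 of the members, H2-Aa, H2-Eb1, H2-DMb1, H2-Oa and H2-DMa. The windows were searched on both strands for GNAAC, a core of the X box, followed after 15 to 30 bases by TGATTGG, a form of the Y box. The pattern was set after the sequences had been read. Of the members with a window, H2-Aa, H2-Eb1, H2-DMb1 and H2-Oa held it, and it lay in 0.469% of all 32851 windows. TGATTGG alone lay in 7.82% of all windows and GNAAC alone in 84.8%. Each stretch is on the gene's own strand, 5′ to 3′, with both matches in capitals.
H2-Aa, chr17:34287855-34287916, minus strand: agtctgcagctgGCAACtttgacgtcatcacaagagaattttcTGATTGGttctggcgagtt
H2-Eb1, chr17:34305764-34305824, plus strand: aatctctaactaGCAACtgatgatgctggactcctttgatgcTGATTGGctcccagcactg
H2-DMb1, chr17:34153085-34153146, plus strand: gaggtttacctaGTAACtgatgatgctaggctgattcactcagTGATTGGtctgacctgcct
H2-Oa, chr17:34092291-34092352, plus strand: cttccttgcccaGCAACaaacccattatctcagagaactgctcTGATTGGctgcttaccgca
H2-Ob, not a member, chr17:34238806-34238864, plus strand: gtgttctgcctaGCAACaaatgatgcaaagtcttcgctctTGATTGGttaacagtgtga

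The matches were separated by 26 bases in H2-Aa, H2-DMb1 and H2-Oa, by 25 bases in H2-Eb1 and by 23 bases in H2-Ob. The Y box began 50 bases before the annotated start in H2-Aa, 61 in H2-Eb1, 63 in H2-DMb1 and 45 in H2-Oa. H2-DMa has 2 annotated starts, and neither window held the pattern or TGATTGG, which says only that these letters are not in those windows. Of the other class II genes with a window, H2-Ob and H2-Eb2 held the pattern, and H2-DMb2 held TGATTGG without it.

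The I-A and I-E chain genes had their highest levels in the acute arrays, although none was called in acute versus control (tests below). H2-Aa, the I-A alpha chain, had levels of 14.21, 14.27, 14.01 and 13.96 in resolution arrays, 14.50, 14.67 and 14.81 in acute arrays and 14.02, 14.30, 14.22 and 14.02 in control arrays. H2-Ab1, the I-A beta chain, had levels of 16.177, 16.14, 15.943 and 16.174 in resolution arrays, 16.461, 16.801 and 16.571 in acute arrays and 16.051, 16.213, 16.305 and 15.999 in control arrays. H2-Eb1, the I-E beta chain, had levels of 15.79, 15.96, 15.66 and 15.92 in resolution arrays, 16.37, 16.60 and 16.42 in acute arrays and 15.69, 15.98, 15.96 and 15.61 in control arrays. For each of the 3 genes, every acute array lay above every resolution and every control array, while resolution and control arrays overlapped. Of all genes, 4.71% had all acute arrays above all control arrays and 12.9% all resolution arrays below all acute arrays. The share with both at once is not given here.

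The H2-DM genes followed another course, in which resolution arrays as well as acute arrays lay above control. H2-DMa, the alpha chain, had levels of 15.53, 15.73, 15.62 and 15.72 in resolution arrays, 15.37, 15.63 and 15.42 in acute arrays and 15.25, 15.30, 15.30 and 14.80 in control arrays. H2-DMb1, the beta chain, had levels of 16.43, 16.56, 16.50 and 16.54 in resolution arrays, 16.49, 16.74 and 16.60 in acute arrays and 16.20, 16.36, 16.27 and 16.11 in control arrays. For both genes all resolution and all acute arrays lay above all control arrays, and resolution and acute arrays overlapped. Of all genes, resolution arrays lay above control for 11.4% and acute arrays for 4.71%. Control replicate 4 stood apart for H2-DMa, below the other 3 controls.

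H2-Oa, the alpha chain of the inhibitor H2-DO, had levels of 8.41, 8.76, 8.18 and 7.86 in resolution arrays, 8.84, 8.97 and 9.35 in acute arrays and 8.63, 8.43, 8.43 and 7.99 in control arrays. Its acute arrays lay above all others and its resolution and control arrays overlapped, as for the I-A and I-E chains. Ciita had levels of 6.77, 6.93, 7.01 and 6.67 in resolution arrays, 7.06, 6.84 and 7.31 in acute arrays and 6.37, 6.47, 6.45 and 6.65 in control arrays. It was dim, although all 11 arrays lay above their own background, by 0.48 to 0.85 in resolution, 0.64 to 1.12 in acute and 0.20 to 0.53 in control arrays. The resolution and acute arrays of Ciita lay above all control arrays and overlapped with each other.

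**Figure D1:**
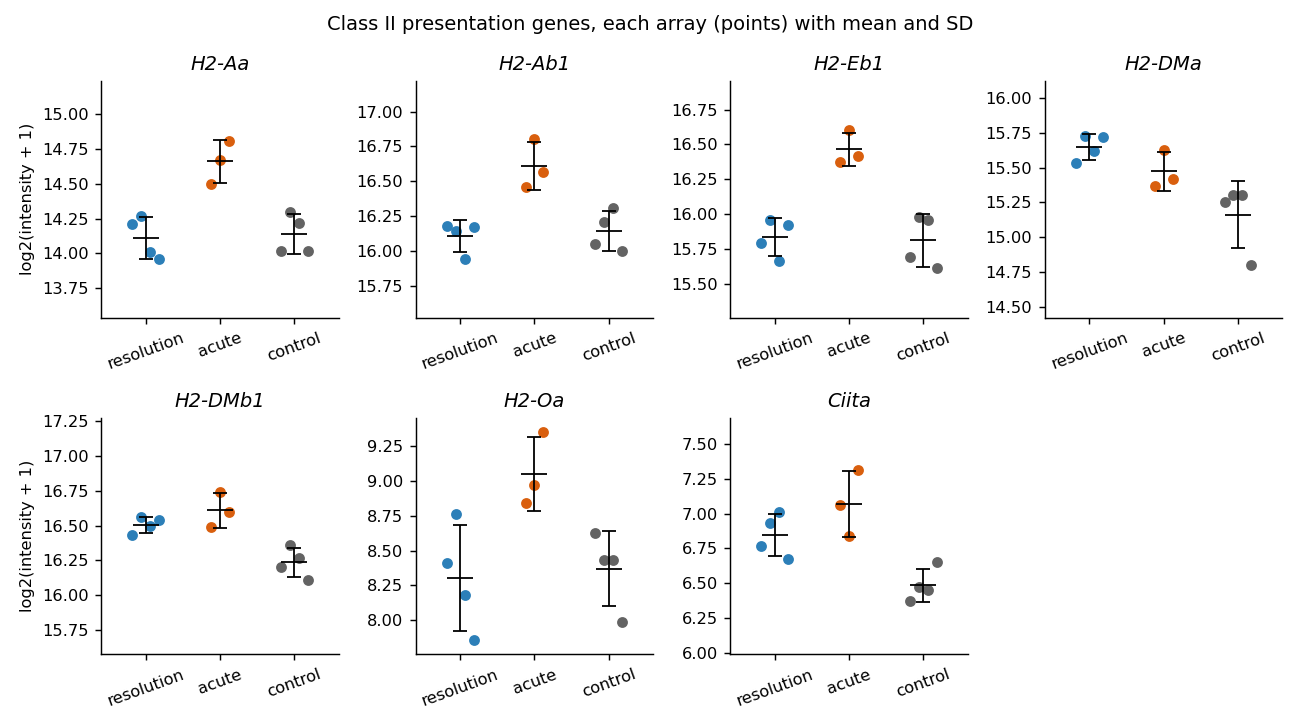
Level of each of the 7 measured genes, as log2(intensity + 1), on each resolution (n = 4), acute (n = 3) and control (n = 4) array; points are arrays and black bars the mean and SD, and every panel spans the same log2 range. The acute arrays of H2-Aa, H2-Ab1, H2-Eb1 and H2-Oa lie above all other arrays, while for H2-DMa, H2-DMb1 and Ciita the resolution arrays also lie above all control arrays.

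Acute versus control asks how class II presentation stood at the end of the CpG course. All 7 genes were higher in the acute arrays by 0.31 to 0.68, and no acute array of any of them fell among the controls, a separation seen for 4.71% of all genes. Their median difference was 0.52, against -0.00059 over all genes. None passed the gene test, limma with Benjamini-Hochberg adjustment over 12143 genes, which called 0.239% of all genes, 0.189% higher and 0.0494% lower. At an unadjusted p under 0.05 there were 6 of the 7 (all but H2-DMa), against 9.05% of all genes.

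H2-Eb1 had the smallest adjusted p of the 7. It averaged 16.47 ± 0.12 in acute arrays (SD, n = 3) and 15.81 ± 0.19 in control arrays (SD, n = 4), a difference of 0.66 ± 0.13 (SE, limma adjusted p = 0.0841), or 1.58-fold. H2-Aa differed by 0.52 ± 0.13 (SE, limma adjusted p = 0.217) and H2-Ab1 by 0.47 ± 0.13 (SE, limma adjusted p = 0.262). H2-Oa had the largest difference, 0.68, and also the largest error of the 7, ± 0.21 (SE, limma adjusted p = 0.328).

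For Ciita the difference was 0.58 ± 0.14 (SE, limma adjusted p = 0.162), from a mean of 7.07 ± 0.23 in acute arrays (SD, n = 3) and 6.49 ± 0.12 in control arrays (SD, n = 4). The H2-DM genes differed least, H2-DMb1 by 0.38 ± 0.11 (SE, limma adjusted p = 0.308) and H2-DMa by 0.31 ± 0.14 (SE, limma adjusted p = 0.553). With a mean-variance trend in the same fit, limma called H2-Eb1 (adjusted p = 0.00555), H2-DMb1 (0.0264) and H2-Ab1 (0.0337), and with array weights it called H2-Eb1 (0.0462).

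The day 30 mice were then set against the PBS mice. H2-DMa rose, the only one of the 7 genes called, where limma called 18.6% of all genes, 9.6% higher and 9% lower. It averaged 15.65 ± 0.09 in resolution arrays and 15.16 ± 0.24 in control arrays (SD, n = 4 each), 1.40-fold or 0.48 ± 0.13 (SE, limma adjusted p = 0.0232). The call depended on single arrays and ended without control replicate 4 (difference 0.36, limma adjusted p = 0.0508), resolution replicate 2 (0.46, adjusted p = 0.0510) or resolution replicate 4 (0.46, adjusted p = 0.0551).

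Ciita and H2-DMb1 had positive differences that did not pass. Ciita differed by 0.36 ± 0.13 (SE, limma adjusted p = 0.0749), with 6.84 ± 0.15 in resolution and 6.49 ± 0.12 in control arrays (SD, n = 4 each). H2-DMb1 differed by 0.27 ± 0.10 (SE, limma adjusted p = 0.0907), with 16.51 ± 0.06 in resolution and 16.23 ± 0.10 in control arrays (SD, n = 4 each). Together with H2-DMa, these were the 3 of 7 genes whose resolution arrays all lay above the controls, against 11.4% of all genes.

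The display chains and H2-Oa lay close to control on day 30. H2-Aa differed by -0.03, with a 95% interval of -0.29 to 0.24, H2-Ab1 by -0.03 (-0.29 to 0.23), H2-Eb1 by 0.02 (-0.25 to 0.30) and H2-Oa by -0.07 (-0.50 to 0.36). None of the 4 was called, and the intervals include falls and rises. The median over the 7 genes was 0.02, against 0.0035 over all genes.

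Resolution versus acute sets the later CpG group against the earlier one, and shares its arrays with the comparisons above. H2-Oa, H2-Eb1, H2-Aa and H2-Ab1 fell, 4 of 7 genes, where 14.5% of all genes were called, 7.77% higher and 6.69% lower. H2-Eb1 averaged 15.83 ± 0.14 in resolution arrays (SD, n = 4) and 16.47 ± 0.12 in acute arrays (SD, n = 3), a fall of 1.55-fold (difference -0.63 ± 0.13 SE, limma adjusted p = 0.00781). H2-Aa fell 1.46-fold (limma adjusted p = 0.0163), H2-Ab1 fell 1.42-fold (adjusted p = 0.0210) and H2-Oa fell 1.69-fold (adjusted p = 0.0351). The resolution arrays of these 4 genes all lay below the acute arrays, as for 12.9% of all genes.

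The genes of H2-DM and Ciita were not called in resolution versus acute. H2-DMa differed by 0.17, with a 95% interval of -0.14 to 0.49, H2-DMb1 by -0.10 (-0.35 to 0.14) and Ciita by -0.22 (-0.53 to 0.08). The median over the 7 genes was -0.50, against -0.0013 over all genes.

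Of the 4 falls, H2-Eb1 stayed past the threshold whichever array was left out, with limma adjusted p up to 0.0398. H2-Aa lost its call without acute replicates 2 (0.0523) or 3 (0.0726), and H2-Ab1 without acute replicates 2 (0.0917) or 3 (0.0516) or resolution replicate 3 (0.0597). H2-Oa lost its call without acute replicates 1 (0.0512), 2 (0.0705) or 3 (0.134) or resolution replicates 1 (0.0530), 3 (0.0811) or 4 (0.0812).

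**Figure D2:**
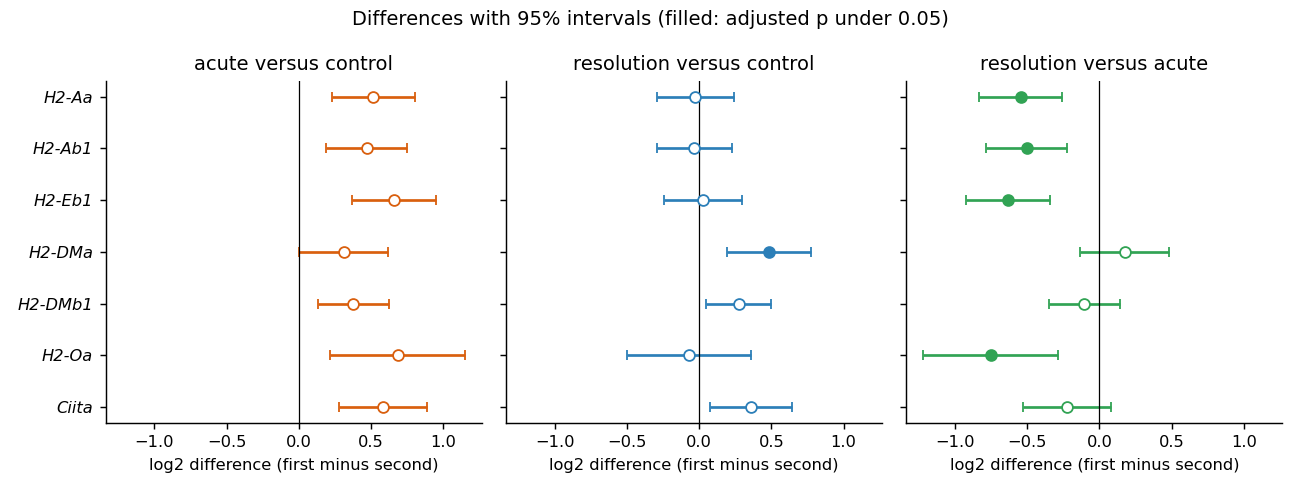
Log2 difference of each gene in the 3 comparisons, first-named minus second-named group, with 95% intervals from limma; filled points have an adjusted p under 0.05. All 7 differences in acute versus control are positive and open, H2-DMa is filled in resolution versus control, and H2-Aa, H2-Ab1, H2-Eb1 and H2-Oa are filled and negative in resolution versus acute.

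The unequal course of the display chains and of H2-DM can be put as 1 difference within each array. This recombines the values above and adds no separate evidence. It was chosen after the values had been seen and is given without a test. The mean level of H2-DMa and H2-DMb1 minus the mean level of H2-Aa, H2-Ab1 and H2-Eb1, set to 0 at the control mean, was 0.25, 0.35, 0.52 and 0.44 in resolution arrays, -0.18, -0.17 and -0.26 in acute arrays and 0.14, -0.01, -0.05 and -0.09 in control arrays. The 3 groups did not overlap on this measure, which averaged 0.39 ± 0.12 in resolution (SD, n = 4), -0.20 ± 0.05 in acute (SD, n = 3) and 0.00 ± 0.10 in control arrays (SD, n = 4). H2-Oa minus the H2-DM genes was -0.24, -0.05, -0.55 and -0.94 in resolution arrays, 0.24, 0.11 and 0.67 in acute arrays and 0.23, -0.07, -0.02 and -0.14 in control arrays. This difference, which leaves out H2-Ob and H2-DMb2, was lower in every resolution than in every acute array, and both groups overlapped with control.

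**Figure D3:**
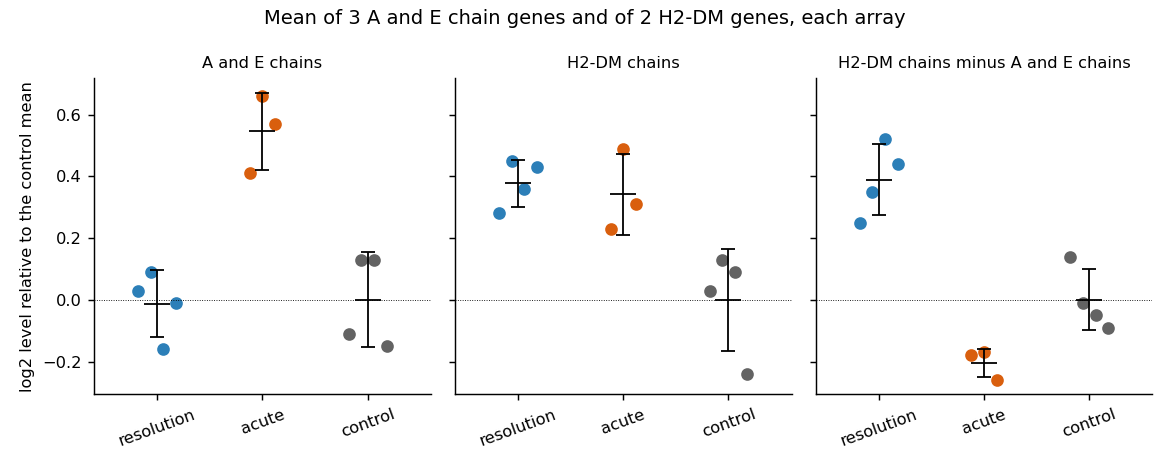
Mean log2 level of the display chain genes H2-Aa, H2-Ab1 and H2-Eb1, of the H2-DM genes H2-DMa and H2-DMb1, and the second minus the first, each relative to the control mean, on every resolution (n = 4), acute (n = 3) and control (n = 4) array; black bars are the mean and SD. The display chains are high in acute arrays alone, the H2-DM genes in resolution and acute arrays, and the difference separates the 3 groups.

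The other class II chains of the same region were read from a wider list. H2-DMb2, another H2-DM beta chain gene and a close paralogue of H2-DMb1 whose probes may not be fully separate, rose 1.49-fold in resolution versus control (0.58 ± 0.16 SE, limma adjusted p = 0.0248). Its level was 13.48 ± 0.23 in resolution (SD, n = 4), 13.49 ± 0.27 in acute (SD, n = 3) and 12.90 ± 0.22 in control arrays (SD, n = 4), and it did not pass in acute versus control (adjusted p = 0.296). Resolution minus acute was -0.02, with a 95% interval of -0.39 to 0.36. H2-DMb2 lost its call without control replicates 1 (0.0700) or 3 (0.0675), without resolution replicates 2 (0.0662) or 4 (0.0614) and after scaling to a common median (0.0556). H2-Ob, the beta chain of H2-DO, was above background on 0 of 4 resolution, 3 of 3 acute and 1 of 4 control arrays, and H2-Eb2 on none of the 11.

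Genes of the region lie on chromosome 17 in the order H2-Oa, Brd2, H2-DMa, H2-DMb2, H2-DMb1, Psmb9, Tap1, Psmb8, Tap2, H2-Ob, H2-Ab1, H2-Aa, H2-Eb1 and H2-Eb2. The genes between the H2-DM genes and H2-Ob, which serve class I presentation, rose in acute versus control. Psmb9, an immunoproteasome subunit, had a difference of 1.42 (limma adjusted p = 0.00403), Tap1 and Tap2, the peptide transporter, of 1.09 (0.00809) and 0.88 (0.0269), and Psmb8, another immunoproteasome subunit, of 1.05 (0.0107). The call of Tap1 ended without acute replicate 2 (0.0666) and that of Psmb8 without acute replicates 2 (0.0666) or 3 (0.0674), each by adjusted p. Tap2 was no longer called when control replicate 1 (0.101), control replicate 2 (0.0538), control replicate 4 (0.0656), acute replicate 1 (0.127), 2 (0.108) or 3 (0.0867) or resolution replicate 3 (0.0519) was left out, nor when only the compared groups were fitted (0.128). Brd2, which encodes a chromatin reader between H2-Oa and H2-DMa, differed by -0.01.

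Of the 9 class I and neighbouring genes, 4 rose and 0 fell in acute versus control, 1 rose and 1 fell in resolution versus control, and 0 rose and 6 fell in resolution versus acute. Over all genes, 0.189% were called higher in acute versus control, 18.6% called in resolution versus control and 6.69% called lower in resolution versus acute. H2-D1, a class I heavy chain, fell in resolution versus control (-0.45, limma adjusted p = 0.0122) and versus acute (-0.71, adjusted p = 0.00169). Psmb9 rose in resolution versus control (0.76, adjusted p = 0.00526).

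**Figure D4:**
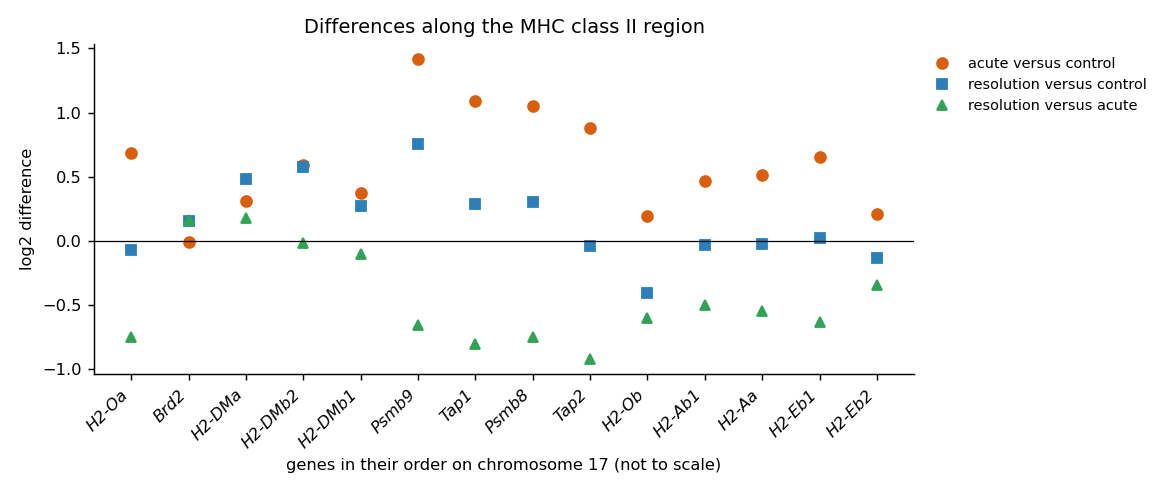
Log2 difference of 14 genes of the MHC class II region in their order on chromosome 17 (evenly spaced, not to scale), for acute versus control (circles), resolution versus control (squares) and resolution versus acute (triangles). The display chains on the right and H2-Oa on the left are near 0 in resolution versus control. H2-DMa, H2-DMb2 and H2-DMb1 are positive in both comparisons with control, and so are their neighbours Psmb9, Tap1 and Psmb8.

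Upstream of Ciita, 7 genes of the interferon-gamma arm were measured, and 0 were called in acute versus control (limma, 0.239% of all genes called). At an unadjusted p under 0.05 there were 2, against 9.05% of all genes. At 1.12 ± 0.23 (SE), Irf1, a transcription factor that acts on a Ciita promoter, had the smallest p of the 7 (limma adjusted p = 0.0941). Its level was 8.06 ± 0.34 in resolution (SD, n = 4), 8.71 ± 0.38 in acute (SD, n = 3) and 7.60 ± 0.33 in control arrays (SD, n = 4). In resolution versus control 2 rose and 1 fell, where 9.6% of all genes were called higher and 9% lower. The transcription factors Usf1 and Irf8 rose 2.55-fold (adjusted p = 0.000588) and 2.21-fold (0.00781), and the kinase gene Jak2 fell 1.46-fold (0.0432). Jak2 also fell 1.86-fold in resolution versus acute (0.00630), where Usf1 rose 1.71-fold (0.0332).

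Usf1 was dim, above background on 3 of 4 control arrays. Jak2 against control was no longer called when control replicate 1 (0.115), control replicate 3 (0.104), acute replicate 2 (0.0565) or resolution replicate 1 (0.0882), 2 (0.110) or 3 (0.0772) was left out, or with no filter on dim genes (0.0592). Usf1 lost its call against acute without acute replicates 1 (0.0945), 2 (0.0786) or 3 (0.0820) or resolution replicates 2 (0.0744) or 4 (0.0805), and after quantile normalization (0.0935).

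Of the factors that bind the X and Y boxes, 7 were measured, and 0 passed in acute versus control (limma, 0.239% of all genes called). At an unadjusted p under 0.05 there was 1, against 9.05% of all genes. It was Nfya, a subunit of the Y box factor, at -0.39 (limma adjusted p = 0.536). Creb1, which binds next to the X box, fell 1.39-fold in resolution versus control (limma adjusted p = 0.0226) and 1.47-fold versus acute (0.0210). The other 6 passed in neither. This count of 1 in 7 lay near the share of all genes called, 18.6% in resolution versus control and 14.5% in resolution versus acute. Creb1 missed the threshold against control when control replicate 1 (0.0585), control replicate 3 (0.0665), resolution replicate 1 (0.0518) or resolution replicate 3 (0.0662) was left out, and against acute without acute replicates 2 (0.0761) or 3 (0.0561) or resolution replicate 3 (0.0585).

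Of 3 genes that act on class II at the cell surface, 1 fell in resolution versus control, where 9% of all genes fell. In resolution versus acute 2 fell, against 6.69% of all genes. In acute versus control 0 were called (limma), with 1 at an unadjusted p under 0.05, against 9.05% of all genes. Marchf1, a ubiquitin ligase that sends class II from the cell surface to degradation, had 9.54 ± 0.36 in resolution (SD, n = 4), 10.30 ± 0.0048 in acute (SD, n = 3) and 10.35 ± 0.14 in control arrays (SD, n = 4). It fell 1.75-fold versus control (limma adjusted p = 0.00384) and 1.69-fold versus acute (0.0118). Cd83, which in dendritic cells opposes this ligase, had 7.92 ± 0.10 in resolution (SD, n = 4), 8.90 ± 0.23 in acute (SD, n = 3) and 8.06 ± 0.31 in control arrays (SD, n = 4). It fell 1.98-fold in resolution versus acute (0.00223) and missed the threshold in acute versus control (difference 0.84 ± 0.17 SE, adjusted p = 0.0796). Marchf8, a related ligase, was not called in any of the 3 comparisons.

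Of 7 genes for cutting the invariant chain and antigens, 2 fell and 0 rose in resolution versus control. Of all genes, 9% fell and 9.6% rose in that comparison. In acute versus control and resolution versus acute, 0 of the 7 were called (limma). At an unadjusted p under 0.05 there were 2 and 1, against 9.05% and 28.8% of all genes. The protease genes Lgmn and Ctsb fell 1.44-fold (limma adjusted p = 0.00604) and 1.29-fold (0.0250) in resolution versus control. Ctsb was no longer called when control replicate 2 (0.0582), control replicate 4 (0.0628), resolution replicate 3 (0.0674) or resolution replicate 4 (0.0616) was left out. Ctss, the protease that trims the invariant chain in many antigen-presenting cells, differed by 0.04 in acute versus control and by 0.0029 in resolution versus control. For the receptors and ligand of the invariant chain, 4 genes, 1 fell on day 30, Cxcr2, 2.12-fold versus control (8.04e-05) and 2.00-fold versus acute (0.000409), while Cd44, Mif and Cxcr4 were not called. Of all genes, 9% were called lower in resolution versus control and 6.69% in resolution versus acute.

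By likeness of pattern over the 11 arrays, the mean of H2-Aa, H2-Ab1 and H2-Eb1 was closest to Cxcl9, among 12136 genes outside the set, as a description without a test, since the arrays share their groups. Cxcl9, a chemokine induced by interferon-gamma, had a Pearson r of 0.94 and a Spearman rho of 0.76 and was above background on 4 arrays. Next came Chrna6 (r = 0.92), Cd83 (0.92), the class I gene H2-M3 (0.91), Olfr871 (0.90) and AW112010 (0.90), of which Chrna6 and Olfr871 were above background on 0 arrays. Ciita was closest to Cldn12 (r = 0.92), Cxcl13 (0.89), Dsc1 (0.88), Bicdl1 (0.88), C1qa (0.86), a complement chain, and Vmn2r89 (0.86), of which Cldn12 and C1qa were above background on 9 and 11 arrays and the others on 6 or fewer.

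Some cells other than macrophages also carry class II, so markers of several cell types, whether or not they carry it, were read beside these results. As above, limma called 0.189% of all genes higher and 0.0494% lower in acute versus control, 9.6% and 9% in resolution versus control, and 7.77% and 6.69% in resolution versus acute. An unadjusted p under 0.05 in acute versus control was seen for 9.05% of all genes. All 10 alveolar macrophage markers in the table were above background on every array, with a mean log2 level over the list of 15.20 to 15.29 in resolution, 15.11 to 15.21 in acute and 15.19 to 15.27 in control arrays. Their summed intensity was 482498 to 502730 in resolution, 498742 to 532861 in acute and 523886 to 575198 in control arrays. In resolution versus control, Fabp4, a lipid carrier, fell 2.29-fold (limma adjusted p = 7.79e-05), while Pparg, a transcription factor of these cells, rose 1.68-fold (0.000809) and Krt79 rose 1.54-fold (0.0138). Of the 10, 0 were called in acute versus control (limma; 0 at an unadjusted p under 0.05).

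Of 8 B and plasma cell markers in the table, 0 were above background on any array. Of 12 dendritic cell markers 5 were above background on every array, and Flt3, Zbtb46, Xcr1, Cd209a, Fscn1 and Itgae on none. Their summed intensity was 2059 to 2418 in resolution, 2669 to 3193 in acute and 2516 to 2938 in control arrays. Of 8 tested, 0 were called in acute versus control (limma; 2 at an unadjusted p under 0.05), 1 fell in resolution versus control and 4 fell in resolution versus acute. The chemokine gene Ccl22 fell 2.71-fold versus control (adjusted p = 3.00e-05) and 2.83-fold versus acute (6.45e-05). The other 3 called in resolution versus acute were Xcr1 and Itgae, whose levels lay below background, and Siglech, above it on 2 of 3 acute arrays and no resolution array. Xcr1 lost its call without acute replicate 1 (0.0670), 2 (0.0607) or 3 (0.0827) or resolution replicate 1 (0.0651) or 4 (0.0649), and Siglech without control replicate 1 (0.0554), acute replicate 1 (0.136) or 2 (0.161) or resolution replicate 2 (0.0896), 3 (0.121) or 4 (0.0633).

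Lung epithelium, whose alveolar type 2 cells can carry class II, differed in its markers between the groups. Of 14 markers in the table, 7 were above background on every resolution, 9 on every acute and 8 on every control array, and Sftpb, Krt18 and Lamp3 on none of the 11. Their summed intensity was 12884.5 to 14917 in resolution, 25809 to 44938 in acute and 12105 to 21833 in control arrays. The bright gene Cdh1 weighs most in the resolution and control sums, so they say little of the dimmer secretory genes. It averaged 13.42 in resolution, 12.97 in acute and 13.05 in control arrays. Of 11 tested, 4 rose in acute versus control, 4 fell in resolution versus control and 7 fell in resolution versus acute. The airway secretory gene Scgb1a1 averaged 7.49 ± 0.45 in resolution (SD, n = 4), 11.16 ± 0.29 in acute (SD, n = 3) and 8.93 ± 0.79 in control arrays (SD, n = 4). Scgb3a1, Bpifa1, Scgb1a1 and Cyp2f2 rose 6.25-fold, 5.85-fold, 4.69-fold and 2.78-fold in acute versus control (limma adjusted p = 0.0269 to 0.0279). None of these 4 stayed called without control replicate 1 or acute replicate 1, 2 or 3, and some also lost their call without control replicate 2 or 3 or resolution replicate 1, 2 or 3 (adjusted p up to 0.125). Sftpc, made by type 2 cells, had levels of 9.53 to 10.81 in resolution, 10.89 to 12.56 in acute and 9.55 to 11.97 in control arrays. Control arrays overlapped with both CpG groups, and resolution arrays lay below acute arrays. Epcam and Cdh1 of the same list went the other way and were not called. They differed by -0.24 and -0.07 in acute versus control and by 0.51 and 0.45 in resolution versus acute. For both, all resolution arrays lay above all acute arrays, a separation whose share over all genes is not given here. Of the 11 tested, 9 differences were positive and 2 negative in acute versus control.

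Markers of interstitial macrophages had a summed intensity of 691 to 1271 in resolution, 839 to 1372 in acute and 405 to 502 in control arrays, with 1 of 9, C1qa, above background on every array and Cx3cr1, Folr2, Lyve1, Mgl2 and Cd163 on none. C1qa rose 3.68-fold in acute versus control (limma adjusted p = 0.0201) and 2.85-fold in resolution versus control (0.00203). The acute call ended without control replicate 1 (0.0791) or 2 (0.0557) or acute replicate 2 (0.121) or 3 (0.0978).

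The monocyte list gave different orders by sum and by mean. The summed intensity of its 8 markers was 59431 to 76428 in resolution, 41541 to 42959 in acute and 43369 to 52175 in control arrays, and their mean log2 level was 8.06 to 8.33 in resolution, 8.39 to 8.96 in acute and 8.07 to 8.20 in control arrays. The bright genes Fn1 and Nr4a1 weigh most in the sum. Of 6 tested, 1 rose and 0 fell in acute versus control. There 3 differences were positive and 3 negative, down to -0.46 for Treml4. In resolution versus control 2 rose and 1 fell, and in resolution versus acute 2 rose and 2 fell. Ly6c1 was above background on 3 of 3 acute arrays and on no other, and rose 3.69-fold in acute versus control (limma adjusted p = 0.00403). In resolution versus control Nr4a1 rose 4.26-fold (0.000103) and Treml4 fell 3.30-fold (0.00105). Plac8 was above background on 1 acute array and Ly6c2 on none.

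For 11 T and NK cell markers the summed intensity was 301 to 327 in resolution, 482 to 709 in acute and 323 to 417 in control arrays. Il2rb and Cd3d were above background on 3 of 3 acute arrays and on no resolution or control array, while Cd3e, Cd3g, Cd8a, Ncr1, Klrb1c, Gzma, Nkg7 and Prf1 were above it on none of the 11. Cd4 was above background on 3 of 4 resolution, 2 of 3 acute and 4 of 4 control arrays. It differed by 0.14 in acute versus control (limma adjusted p = 0.898). Of 5 markers tested in that comparison, 3 differences were positive and 2 negative, Klrb1c at -0.61 and Cd3e at -0.03. Klrb1c differed by 0.61 in resolution versus acute. Il2rb, a receptor chain of T and NK cells, rose 4.10-fold in acute versus control (limma adjusted p = 0.0196) and fell 5.99-fold in resolution versus acute (0.000199). Cd3d, a chain of the T cell receptor complex, fell 2.87-fold in resolution versus acute (0.000114) and 1.65-fold versus control (0.00721). The acute call of Il2rb ended without control replicate 1 (0.0630) or acute replicate 2 (0.108) or 3 (0.0867), and when only the compared groups were fitted (0.134). The part of any of the cell types above in the class II levels was not tested.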

How the data were processed

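RNA of 11 samples of alveolar macrophages was measured on 1 Affymetrix array each. The authors deposited intensity values on a linear scale, made with Affymetrix Expression Console per the submitters' processing notes. Its version, algorithm and genome build were not given in the sources used here. Its table holds 28846 probe sets, of which 19572 have 1 gene symbol in the platform annotation. The values were used as log2(value + 1) without further scaling. Genes were kept where at least 3 arrays lay above their own 40th percentile. Group means were estimated from the 11 arrays together, without a block, by limma 3.58.1 (R 4.3.3), and 3 two-sided contrasts were adjusted by Benjamini-Hochberg at a threshold of 0.05. The fit was tested on simulated data. Errors of differences are moderated standard errors, and the number of arrays limits the precision. Promoter windows came from RefSeq. Named genes are the members, up to 4 genes of each list (those called with the largest differences, otherwise the smallest p) and the 6 genes most alike. Brd2, Ctss, Marchf8, Mif, Cxcr4, Sftpc, Epcam, Cdh1, Cd4, H2-Eb2, Plac8 and the markers named as never above background were named beyond it after their values were seen, and some genes the rule allows are given only in counts. Cd74 had been meant to enter the likeness pattern, which uses the mean of H2-Aa, H2-Ab1 and H2-Eb1 instead. Alternatives were other scalings, filters, variance settings, a replicate block and leaving out each array. Members and lists were chosen with earlier results of these data known. The labels call the samples biological replicates.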

Additional observations from a re-analysis of the deposited data

Results flagged for a closer look

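Within groups of 4 arrays, 14 sets of values of the 7 genes were checked for an array far from the others, and 2 stood out, where chance gives about 1 in 20. Control replicate 4 was low for H2-DMa, at 14.80 against 15.25 to 15.30 in the other controls, and the call of H2-DMa in resolution versus control ended without it. Resolution replicate 3 was low for H2-Ab1, at 15.94 against 16.14 to 16.18 in the other resolution arrays.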

How the results depend on the processing

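Leaving out 1 array in turn gave 0 of the 7 genes called in acute versus control throughout, 0 to 1 in resolution versus control and 1 to 4 in resolution versus acute. With a mean-variance trend the counts in the comparisons with control were 3 (acute) and 2 (resolution), and with array weights 1 and 2. Same-numbered arrays of different groups had correlations of their deviations between -0.12 and 0.09, and differently numbered arrays between -0.14 and 0.20. No pairing by replicate number was seen, although groups of 3 or 4 arrays are too few to exclude it. With the replicate number as a block, 2 of the 4 genes were called in resolution versus acute (H2-Ab1 at limma adjusted p = 0.0566 and H2-Oa at 0.0613 were not). The block also ended the calls of Ctsb (0.0548), Creb1 (0.0524) and Jak2 (0.0596) in resolution versus control. In resolution versus acute it ended those of Creb1 (0.0552), Usf1 (0.0649), Siglech (0.0610), Itgae (0.0524) and C1qc (0.0790), and in acute versus control that of Tap2 (0.125). Over all genes the block gave 25 calls in acute versus control, 2120 in resolution versus control and 1455 in resolution versus acute. Over all genes, calls in acute versus control were 29, against 16 with only the compared groups, 51 with the trend, 54 with array weights and 5 to 29 with 1 array left out (5 without acute replicate 2, 9 without acute replicate 3, 13 without control replicate 1, 18 without control replicate 2). Leaving out 1 array gave 1065 (without acute replicate 1) to 1846 in resolution versus acute, against 1755. The calls of resolution versus acute split into 943 higher and 812 lower, against 673 and 989 after scaling to a common median and 685 and 1151 after quantile normalization, and those of acute versus control into 23 and 6, against 25 and 3 and 29 and 3. In resolution versus control 1166 were higher and 1093 lower, against 890 and 1198 after scaling and 1001 and 1259 after quantile normalization. The near-0 differences of resolution versus control turned sign, uncalled, for H2-Ab1 after quantile normalization (0.0082) and for H2-Eb1 after scaling to a common median (-0.021) and with array weights (-0.026). With 1 array left out they ran from -0.081 to 0.026 for H2-Aa, -0.081 to 0.021 for H2-Ab1, -0.043 to 0.083 for H2-Eb1 and -0.22 to 0.078 for H2-Oa; the cause was not tested. Of the members' differences over all comparisons and settings tried, 405 kept direction and side of the threshold, 16 lost a call and 6 gained one. H2-Ob and H2-Eb2 lie too near background to be measured well.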
